A study of Mus musculus with 18 samples.

Results

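Chromatin at 7 genes of the core stem cell programme was described in E14 mouse embryonic stem cells: Pou5f1, Sox2, Sall4, Lin28a, Dppa2, Dppa4 and Utf1. The genes were chosen by name, as 7 of the 21631 protein-coding genes of the RefSeq annotation of GRCm38.p6 on chromosomes 1 to 19 and X. No cut-off on their signal was used, but earlier results of these data were known. Each was measured at its transcription start site (TSS, the 1 kb windows centred within 1 kb of the start), over its gene body and in its flanks, the 20 kb on either side of the body. E14 is an established embryonic stem cell line, grown here in 2i/LIF medium, in which inhibitors of MEK and GSK3 together with the cytokine LIF hold cells in an undifferentiated state, and supplied with light, medium or heavy forms of arginine and lysine. Untreated cells gave 10 libraries of chromatin immunoprecipitation sequencing (ChIP-seq), 2 for each of H3K27me1, H3K27me2, H3K27me3, H3K36me2 and H3K36me3. The 8 remaining libraries were quantitative and covered H3K27me3 and H3K36me2 after 7 days of either EPZ-6438 at 10 µM, which blocks the catalytic activity of EZH2, or an equivalent volume of its solvent DMSO, with 2 libraries per mark and treatment. In these, chromatin of Drosophila S2 cells made up 0.05% of the total as a spike-in. The labels do not say whether the 2 replicates of a group came from separate cultures, so p-values measure the spread between these libraries only. RNA was not measured.

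Pou5f1 encodes OCT4, the POU-domain factor that, with the HMG-box factor SOX2, binds composite sites at genes active in pluripotent cells. SALL4 is a zinc finger protein of the same network, LIN28A binds RNA and blocks maturation of let-7 microRNAs, DPPA2 and DPPA4 are partner SAP-domain proteins that mark and prime promoters of early development, and UTF1 is a chromatin-bound protein that is switched off when stem cells differentiate. H3K27me3 is placed by Polycomb repressive complex 2, whose catalytic subunit is EZH2 or EZH1, and is known from silent and poised promoters. H3K36me3 is placed by SETD2 along transcribed gene bodies, and H3K36me2 is placed mainly by NSD enzymes over broad regions. Methylation of K36 hinders Polycomb repressive complex 2 from methylating K27 of the same histone tail.

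The 7 genes lie on 6 chromosomes (GRCm38.p6). Pou5f1 (gene ID 18999) lies at chr17:35506032-35510777 on the plus strand, 1952 bp before Tcf19. Sox2 (20674) lies at chr3:34649995-34652461, plus strand, inside the long non-coding gene Sox2ot. Sall4 (99377) lies at chr2:168748332-168767201 on the minus strand, 5961 bp from Atp9a. Lin28a (83557) lies at chr4:134003330-134019196, minus strand, 2372 bp before Dhdds in its direction of transcription. Dppa4 (73693), at chr16:48283735-48294292, and Dppa2 (73703), at chr16:48310274-48319513, follow each other on the plus strand 15981 bp apart, so their flanks share windows. The Dppa4 flank also holds the Dppa2 start, and the Dppa2 flank holds the end of Dppa4. Comparisons of these genes with their flanks are therefore partly comparisons with each other. Utf1 (22286), a gene of 1257 bp, lies at chr7:139943856-139945112, plus strand, 2315 bp after Kndc1. The 250 bases before the start of transcription are shown for the 4 members with a RefSeq promoter entry (GRCm38.p6), because these starts fall into a pair low in H3K27me3 (Pou5f1 and Sox2) and a pair that carried it (Lin28a and Utf1). Each is written 5′ to 3′ on the gene's strand, with CG dinucleotides in capitals. Positions are chr17:35505782-35506031 (plus strand) for Pou5f1, chr3:34649745-34649994 (plus) for Sox2, chr4:134018817-134019066 (minus) for Lin28a, where the entry's start lies inside the annotated gene interval, and chr7:139943606-139943855 (plus) for Utf1.
Pou5f1: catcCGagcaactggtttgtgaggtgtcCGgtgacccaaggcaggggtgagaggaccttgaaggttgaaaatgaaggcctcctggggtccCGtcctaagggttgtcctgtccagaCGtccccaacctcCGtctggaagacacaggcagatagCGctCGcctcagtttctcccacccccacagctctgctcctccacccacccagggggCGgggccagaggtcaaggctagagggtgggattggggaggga
Sox2: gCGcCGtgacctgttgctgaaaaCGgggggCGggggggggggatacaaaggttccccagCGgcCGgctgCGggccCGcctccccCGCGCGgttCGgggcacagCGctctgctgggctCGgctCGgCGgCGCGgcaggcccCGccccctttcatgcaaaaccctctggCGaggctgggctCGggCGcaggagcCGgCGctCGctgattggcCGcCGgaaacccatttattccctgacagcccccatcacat
Lin28a: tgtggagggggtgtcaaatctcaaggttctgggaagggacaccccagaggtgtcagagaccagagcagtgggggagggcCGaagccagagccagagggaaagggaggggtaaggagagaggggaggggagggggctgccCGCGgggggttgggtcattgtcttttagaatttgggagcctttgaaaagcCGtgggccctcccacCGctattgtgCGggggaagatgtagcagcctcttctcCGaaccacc
Utf1: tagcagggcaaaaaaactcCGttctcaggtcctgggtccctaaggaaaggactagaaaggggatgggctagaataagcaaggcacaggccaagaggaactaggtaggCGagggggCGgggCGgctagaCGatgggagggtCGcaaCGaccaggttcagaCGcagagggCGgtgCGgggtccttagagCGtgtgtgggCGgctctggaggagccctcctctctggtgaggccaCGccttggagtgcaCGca
The Sox2 sequence held 27 CG dinucleotides, Utf1 14, Pou5f1 8 and Lin28a 7, against a median of 6 over the same 250 bases of 32851 RefSeq starts. As many as in Sox2 were found in 8.56% of those starts. The GC box GGGCGG, searched on both strands, matched once or more in Pou5f1 (1 match), Sox2 (2) and Utf1 (4) and had 0 matches in Lin28a, against 32.7% of all promoters. The octamer-like ATGCAAA (4.12% of promoters) and the SOX-like ACAAAG (16.5%) each matched once in Sox2 (1 match each) and in none of the other 3. The CG-richest promoter shown, that of Sox2, was among the starts low in H3K27me3, and that of Utf1, with the next highest CG number, was among those that carried it.

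All levels below are scaled reads per 1 kb window, so they compare per length. They are mostly given as times the mean of the same library over 2633787 windows of the genome, which is 1 for a region at the genome average. Untreated libraries held 22.9 to 67.5 M window reads (M, units of 1000000) and the quantitative libraries 21.6 to 111.8 M, except the 2 H3K27me3 libraries after the inhibitor with 0.992 and 1.78 M. Replicates of every group differed by more than sampling noise (chi-square per degree of freedom 2.80 to 22.0 over gene bodies), so each counted as a separate library. In bulk chromatin, a mark on fewer cells and less mark in every cell cannot be told apart, which holds for every level here. The cell label could not be checked on RNA. In 20 other genes of the pluripotency network H3K36me3 over the body had a median of 6.06 times, and in 16 regulators of differentiated lineages, listed as known Polycomb targets and so no independent check, H3K27me3 at the 10 usable starts had a median of 11 times.

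H3K27me3, the Polycomb mark, was below the genome mean at the starts of 5 members and above it at the other 2. At the Pou5f1 TSS it was 0.0392 and 0.0469 times the library mean in replicates 1 and 2, which is 1 read in each library. At the Sox2 TSS it was 0.157 and 0.0469 times. Dppa4 (0.0392 and 0.0469 times), Dppa2 (0 and 0.187 times) and Sall4 (0.196 and 0.234 times) were also below the genome mean. At so few reads these 5 starts are not ordered among themselves. For Dppa2 replicate 1 the 0 reads allow up to 0.0591 RPM per window (3 reads, counting error only). At the Lin28a TSS the values were 3.77 and 1.78 times, and at the Utf1 TSS 3.41 and 3.05 times. The lowest library of Lin28a or Utf1 was thus above the highest library of each of the other 5 genes. Over all genes with a known start the median was 0.478 times, and 38.2% lay above the library mean, against 2 of these 7. Over gene bodies the same 5 members were between 0.0471 and 0.219 times in single libraries, Lin28a at 1.5 and 0.896 times, and Utf1 at 4.31 and 3.94 times. In the separate DMSO libraries the TSS values were 4.27 and 3.96 times for Lin28a, 5.37 and 3.82 times for Utf1, and from 0 to 0.488 times for the others. The order of the genes into these 2 sets was therefore the same in all 4 libraries without the inhibitor.

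**Figure D1:**
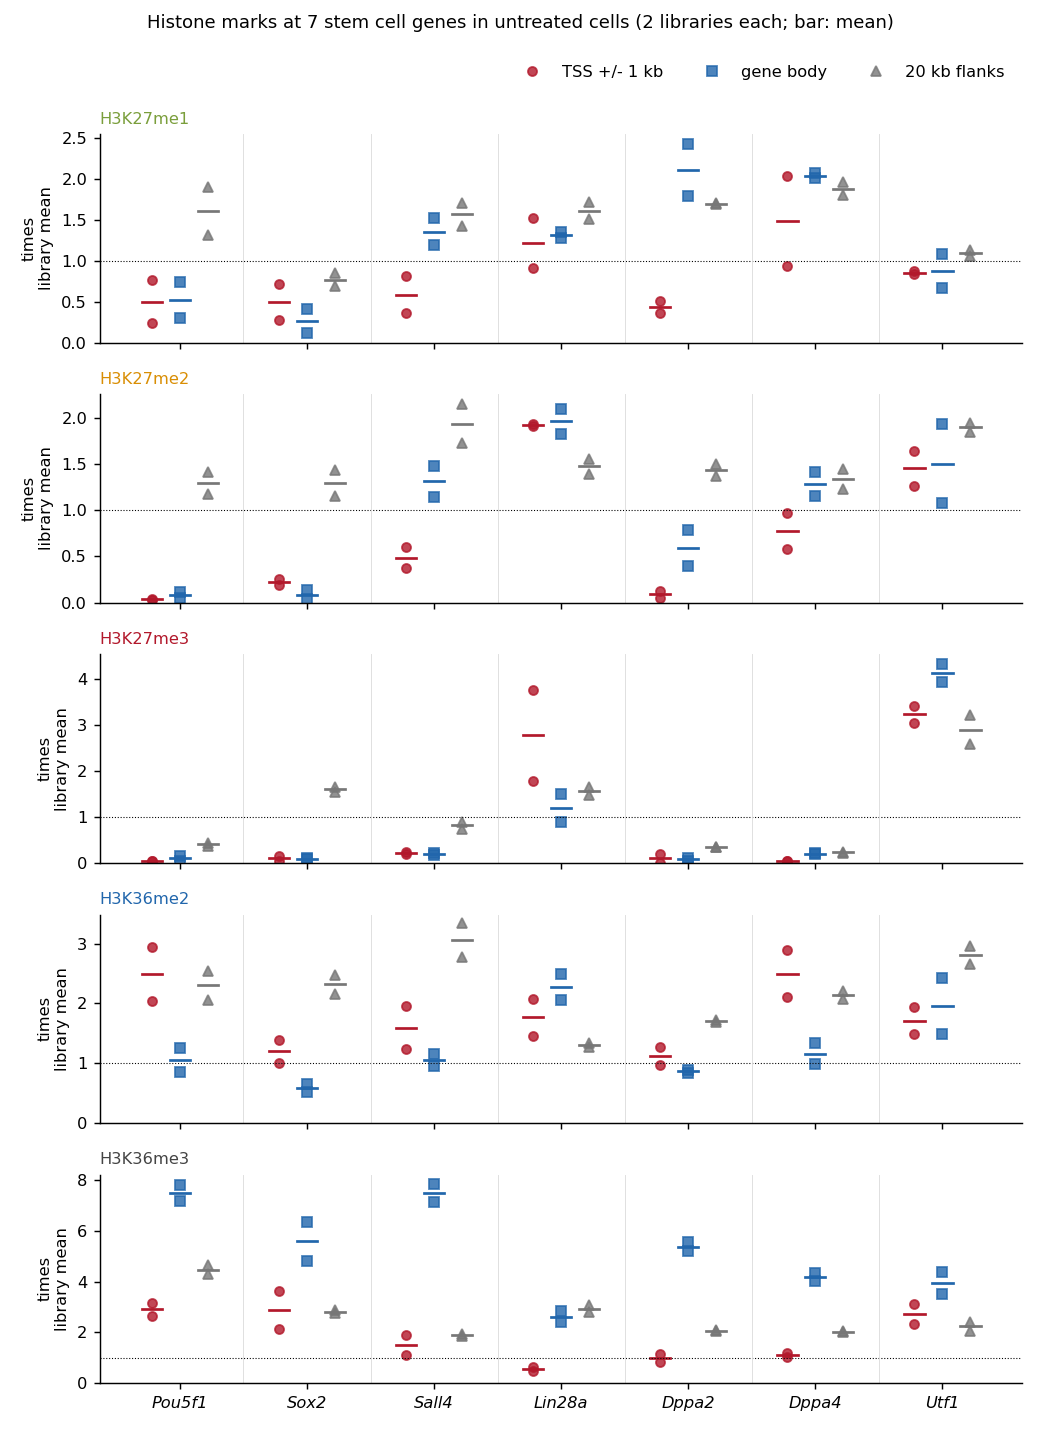
Levels of 5 histone marks at the TSS (circles), gene body (squares) and 20 kb flanks (triangles) of 7 genes in untreated cells, as times the mean of the same library, with 1 point per library (n = 2) and a bar at their mean; the dotted line is the genome mean. H3K27me3 at the TSS stands above the line only for Lin28a and Utf1, and H3K36me3 over the body lies above it for all 7 genes, from 2.41 to 7.86 times.

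Compared with its own flanks, H3K27me3 at the TSS was lower for 5 of 7 members and did not differ beyond the test's threshold for Lin28a and Utf1 (limma, Benjamini-Hochberg adjusted p under 0.05; 41.9% of 17012 genes tested were lower and 31.4% higher). The differences are on the log2 scale of reads per 1000000 (RPM) plus 0.1. In replicates 1 and 2 the starts held 1 and 1 reads (Pou5f1), 4 and 1 (Sox2), 5 and 5 (Sall4), 0 and 4 (Dppa2) and 1 and 1 (Dppa4). These 5 starts reached the test's minimum only together with reads of their flanks. The sizes of their differences depend mainly on the flank level and the added 0.1 RPM, so they do not rank the starts. The Sox2 start stood at -2.60 (SE 0.19, limma adjusted p 0.000141) and the Sox2 body at -2.65 (SE 0.10). This body, too, reached the minimum only together with flank reads, so the size of its difference has the same limit. Pou5f1 stood at -1.31 (SE 0.17), Sall4 at -1.29 (SE 0.18), Dppa2 at -0.96 (SE 0.26) and Dppa4 at -0.81 (SE 0.17), and the last pair had little mark in the flanks to begin with (0.213 to 0.344 times the library mean). The differences of Lin28a, 0.68 (95% interval -0.04 to 1.40), and Utf1, 0.15 (-0.26 to 0.56), spanned 0. Lin28a was called higher with windows that start 500 bp later (0.61, limma adjusted p 0.0326) and with a pseudocount of 0.5 RPM (0.51, adjusted p 0.0329), and the call of Dppa2 was lost without a filter on reads (adjusted p 0.0562). The value for Utf1 became -0.29 with flanks of 50 kb and -0.11 with the later windows. Over its body, Utf1 was the only member with more H3K27me3 than its flanks, by 0.49 (SE 0.10, limma adjusted p 0.00736; 31.8% of genes were higher and 44.2% lower), a difference that was 0.04 with 50 kb flanks and 0.01 with the later windows and then did not pass the test. The members' median at the TSS was -0.96, against -0.22 over all genes.

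The authors' H3K27me3 peaks, which hold regions enriched in untreated cells, covered the TSS of Lin28a and Utf1 and of none of the other 5 (32.6% of gene starts were covered). The Lin28a peak ran from 134017001 to 134044500 on chromosome 4 and so held the first 2196 bp of the gene and the whole 20 kb upstream. The Utf1 peak, 139917001 to 139945000 on chromosome 7, held 91.1% of the gene and the end of Kndc1, and a second peak of 38500 bp began at 139953501. The nearest peak to Sox2 (34614001 to 34645000 on chromosome 3, 31000 bp) ended 4995 bp before its TSS, and that to Pou5f1 lay 27532 bp upstream. Dppa2 and Dppa4 had no peak within 50727 bp of their starts.

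This mark was also described at the starts of functional partners and of related genes of the same families, beside the 38.2% of all genes that lay above the library mean. Of 20 network partners, such as Nanog, Klf and Esrrb, 14 had a usable start, and H3K27me3 there had a median of 0.106 times the library mean, with 1 above the mean (Esrrb, a nuclear receptor of the naive state, at 6.23 times). Of 10 paralogs of the members, 7 had a usable start and 5 were above the mean, with a median of 4.32 times, from 0.0703 times (Pou2f1, the broadly expressed OCT1 gene) to 9.58 times (Pou3f2, a neural POU factor). The members' own median was 0.102 times. These lists were drawn up with the data's earlier results known, so their levels are a description.

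H3K36me3, the mark of transcribed bodies, was above the genome mean in both libraries over all 7 gene bodies (64.2% of 21631 genes were). It was 7.18 and 7.83 times the library mean over Pou5f1, 6.35 and 4.82 times over Sox2, and 7.16 and 7.86 times over Sall4. Dppa2 (5.56 and 5.20 times), Dppa4 (4.34 and 4.04) and Utf1 (3.52 and 4.36) followed, and Lin28a was lowest at 2.41 and 2.84 times. Pou5f1 and Sall4 overlapped and could not be ordered, nor could Sox2 and Dppa2, or Dppa4 and Utf1. The libraries of Lin28a did not overlap with those of any other member. The median of all genes was 1.76 times. Against their own flanks, 6 of 7 bodies were higher (limma; 46.5% of 21048 genes tested were higher and 26.6% lower), from 0.72 (SE 0.08) for Pou5f1 to 1.88 (SE 0.08, adjusted p 0.000258) for Sall4 on the log2 scale, with a median of 0.93 over the members and 0.21 over all genes. Lin28a stood at -0.15 (95% interval -0.37 to 0.07, adjusted p 0.162), and with 50 kb flanks or the later windows it was called lower, at -0.25 and -0.28. Of the 20 partners 19 bodies were higher than their flanks and 0 lower, and of the 10 paralogs 6 were higher and 3 lower.

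H3K36me3 was unevenly spread along the genes. At the other end of the gene it was higher than at the TSS in both libraries for all 7 members (57.8% of 17277 genes were), by 2.44 and 2.95 on the log2 scale for Dppa4, 2.77 and 2.27 for Dppa2 and 1.54 and 1.78 for Pou5f1, and by the least for Utf1 (0.55 and 0.34), whose 2 ends share windows. Its highest window within the Sall4 locus lay 11701 bp into the body, at 15.3 and 18.9 times the library mean. For Sox2 the highest window lay 8005 bp from the TSS (11.5 and 10.9 times), beyond the end of the 2467 bp gene and inside Sox2ot, and for Lin28a it lay over Dhdds (9.97 and 10.7 times). At the TSS the mark was lower than in the flanks for 4 of 7 members (46.5% of 16855 genes tested), with Lin28a lowest at -2.05 (SE 0.21, limma adjusted p 8.13e-07). Of these 4, Pou5f1 (-0.59) turned to 0.19 with 50 kb flanks and to 0.020 with the later windows, and it was not called without a filter on reads (adjusted p 0.0630). Dppa2 and Dppa4 were not called with 50 kb flanks. Sox2 was called lower with the later windows (-0.79, limma adjusted p 0.00696), against 0.28 with 50 kb flanks, and Sall4 with 50 kb flanks (-0.64, adjusted p 0.0423). The downstream flank of Pou5f1, over Tcf19 and Cchcr1, had 7.48 and 8.26 times the library mean and the upstream flank 1.11 and 1.07 times.

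**Figure D2:**
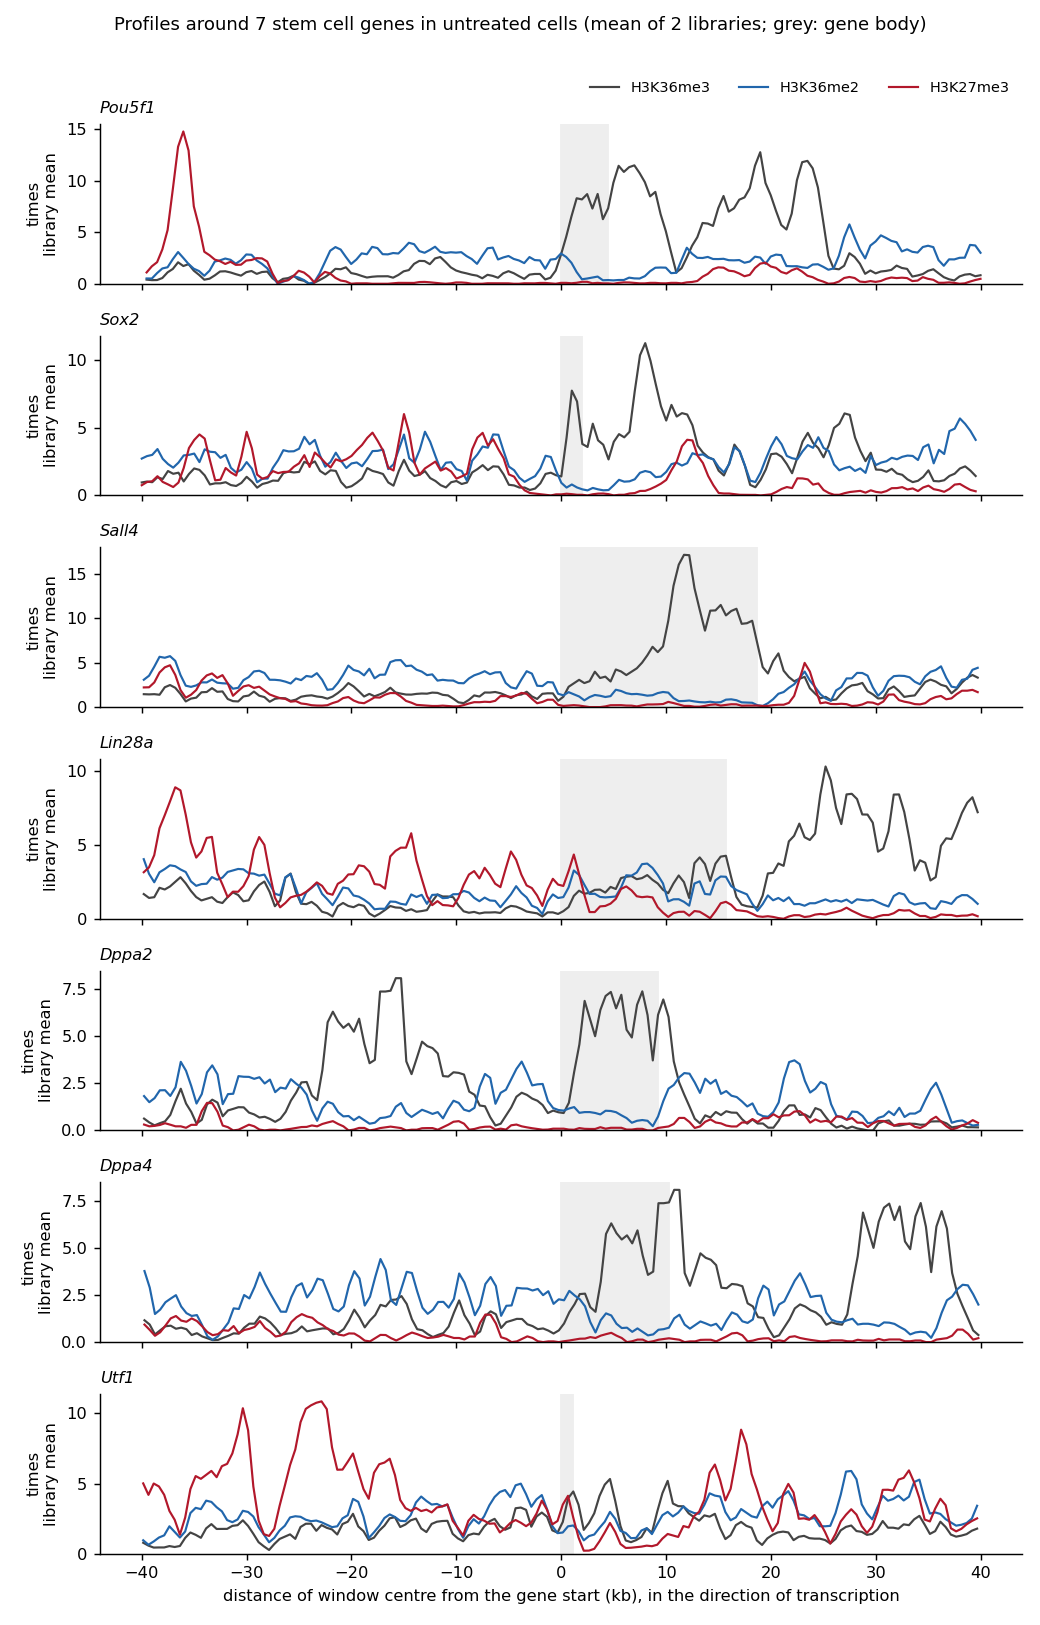
Mean of 2 untreated libraries in 1 kb windows placed every 500 bp, within 40 kb of the start of each gene in its direction of transcription, as times the library mean; grey marks the gene body. Over the bodies of Pou5f1, Sox2, Sall4, Dppa2 and Dppa4, H3K36me2 (blue) is lower and H3K36me3 (dark grey) higher than in the flanks. The highest H3K36me3 windows near Pou5f1 and Sox2, downstream of these genes, lie inside the authors' H3K36me2 peaks. H3K27me3 (red) reaches 6.0 times the library mean 14995 bp upstream of Sox2 and covers the start of Lin28a and Utf1.

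H3K36me2, the broad K36 mark, was lower over the body than in the flanks for 6 of 7 members (limma; 40.1% of 21153 genes tested were lower) and higher for Lin28a (29.5% were higher). Over the Sox2 body it was 0.644 and 0.519 times the library mean, against 2.47 and 2.16 times in the flanks, a log2 difference of -1.69 (SE 0.07, limma adjusted p 0.000182). Over Sall4 it was 1.15 and 0.949 times against 3.34 and 2.78 times (-1.39, SE 0.06), and over Pou5f1 1.26 and 0.856 times against 2.54 and 2.06 times (-1.01, SE 0.08). Body and flank did not overlap in these 3 genes. Dppa2 (-0.84), Dppa4 (-0.79) and Utf1 (-0.51) had smaller differences in the same direction, and that of Utf1 was not called without a filter on reads (limma adjusted p 0.0777). Lin28a had 2.49 and 2.05 times over the body and 1.33 and 1.28 times in the flanks, a difference of 0.71 (SE 0.08, limma adjusted p 0.00114). Of the 20 partners 17 were lower and 2 higher, and the members' median was -0.84 against -0.07 over all genes.

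At the starts, H3K36me2 ranged less widely between the members than over the bodies. The Pou5f1 TSS had 2.95 and 2.04 times the library mean and the Dppa4 TSS 2.89 and 2.11 times, with differences from their flanks of 0.09 (95% interval -0.22 to 0.40) and 0.19 (-0.12 to 0.51) that did not pass the test. The starts of Sox2 (-0.86), Sall4 (-0.89), Dppa2 (-0.53) and Utf1 (-0.66) were lower than their flanks (4 of 7; 36% of 16952 genes tested by limma), although Sox2 stood at -0.29 and was not called with windows that start 500 bp later. Lin28a was higher by 0.37 (SE 0.15, adjusted p 0.0442; 24.4% of genes), but stood at -0.10 with 50 kb flanks and was not called without a filter on reads (adjusted p 0.114) or with the later windows (0.29, adjusted p 0.104). The authors' H3K36me2 peaks had a gap at Pou5f1 from 35507500 to 35514501 on chromosome 17, so that 31.0% of the body lay in a peak while the whole TSS window did. They covered 0% of the bodies of Sox2 and Dppa2, 40.4% of Dppa4 and 54.1% of Sall4, but 100% of Lin28a and of Utf1. At least 50% of the body was thus covered in 3 of 7 members, against 47.8% of all genes.

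H3K27me2 followed H3K27me3 at the starts in part. It was 0.0269 and 0.0430 times the library mean at the Pou5f1 TSS, 0.188 and 0.258 at Sox2, 0.0537 and 0.129 at Dppa2, 0.376 and 0.601 at Sall4 and 0.967 and 0.580 at Dppa4. These 5 were lower than their flanks (limma; 45.4% of 17104 genes tested were lower), by 2.67 (SE 0.16, adjusted p 2.93e-09) on the log2 scale for Pou5f1, whose flanks had 1.42 and 1.17 times. The Pou5f1 start held 1 and 2 reads, that of Dppa2 2 and 6 and that of Sox2 7 and 12. These starts reached the test's minimum only together with flank reads. The sizes of their differences depend strongly on the flank level and the added 0.1 RPM. Lin28a, at 1.93 and 1.91 times, and Utf1, at 1.64 and 1.27 times, were not called, with differences of 0.34 and -0.35. With a pseudocount of 0.5 RPM limma called Lin28a higher (0.24, adjusted p 0.0211) and Utf1 lower (-0.24, adjusted p 0.0227), and with the later windows it also called Utf1 lower (-0.53, adjusted p 0.00340). Over bodies Pou5f1 stood at 0.118 and 0.0515 times and Sox2 at 0.134 and 0.0430 times. Of the bodies, 4 of 7 were lower than their flanks (32.7% of genes tested) and Lin28a was higher (27.4%). The bodies of Pou5f1 and Sox2, counted among the lower ones, also reached the minimum only together with flank reads. The sizes of their differences have the same limit as those of the starts. H3K27me1, a product of the same enzyme family that is known from active bodies, was lower at the TSS than in the flanks for Pou5f1, Sall4 and Dppa2 (3 of 7; 26.6% of 17114 genes) and lower over the body for Pou5f1 and Sox2 (2 of 7; 24.9%). Over Dppa4 it was 2.01 and 2.06 times and over Dppa2 2.43 and 1.79 times the library mean, while over Sox2 it was 0.416 and 0.121 times. The replicates of H3K27me1 differed more than those of other marks at some starts, such as Dppa4 with 2.03 and 0.936 times.

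The neighbourhoods were not symmetric. Upstream of Sox2, H3K27me3 was 2.58 and 2.21 times the library mean over 20 kb, and downstream 0.718 and 0.881 times, while windows at the gene itself were at or near 0. Lin28a had 2.61 and 3.01 times upstream and 0.326 and 0.272 times downstream, and H3K36me3 there had the opposite order, 0.733 and 0.626 times upstream and 4.84 and 5.52 times downstream over Dhdds. The Lin28a gene thus lay between a block of H3K27me3 and a block of H3K36me3, with H3K36me2 of 2.49 and 2.05 times over its body. Around Utf1 both flanks had H3K27me3, at 3.63 and 2.83 times upstream and 2.80 and 2.33 times downstream, together with H3K36me2 at 3.14 and 2.93 times and 2.76 and 2.38 times. Upstream of Pou5f1 H3K27me3 was 0.0628 and 0.0375 times, in the lowest 4.2% of genes, and a window 36032 bp upstream, outside the 20 kb flank, had a mean of 14.8 times.

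Each member was also matched to the genes with the most similar chromatin, by the root mean square difference of log2 levels over 3 regions in 10 untreated libraries (30 values, 17262 to 17270 genes more than 100 kb away). Those nearest to Pou5f1 were Rps21 (0.54) and Mybl2 (0.58), and to Sox2 they were Ran (0.48) and Hnrnpa0 (0.52), against medians of 2.10 and 1.94 over all genes. Sall4 was nearest to Hk2 (0.37) and Etnk1 (0.44), Dppa2 to Rad1 (0.39) and Chek2 (0.44), and Dppa4 to Qrsl1 (0.34) and Cdc42se2 (0.34). Lin28a was nearest to Rtn2 (0.37) and Mns1 (0.40), and Utf1 to Ccn1 (0.29) and Plekho1 (0.39). Among the 21 pairs of members the nearest were Dppa4 and Sall4 (0.73), Pou5f1 and Sox2 (0.78) and Dppa2 and Sall4 (0.81), and the farthest were Pou5f1 and Utf1 (2.23). Lin28a and Utf1 were 0.89 apart, and 17.9% of genes were nearer to Lin28a than Utf1 was, against 0.544% nearer to Pou5f1 than Sox2. The values share libraries and region boundaries and are descriptions.

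After the inhibitor, H3K27me3 on the spike-in scale was far lower around all 7 genes. In the flanks of Pou5f1 the scaled reads per window were 25.7 and 14.0 after DMSO and 0.157 and 0.161 after EPZ-6438. Around Sox2 they were 74.7 and 51.6 against 0.139 and 0.0792, and around Utf1 156 and 93.9 against 0.266 and 0.106. Lin28a had 71.8 and 57.0 against 0.224 and 0.0817. The arms were separated in every member by a wide gap, with all DMSO values at 12.6 or above and all inhibitor values at 0.266 or below. The means were lower by 125-fold for Pou5f1, 578-fold for Sox2, 261-fold for Sall4, 421-fold for Lin28a, 213-fold for Dppa2, 179-fold for Dppa4 and 670-fold for Utf1, with 45 to 91 reads per member in the 2 inhibitor libraries together.

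On the log2(level + 1) scale of the test, which understates the change of low regions, the flanks of all 7 members were lower (limma, 21298 of 21300 genes tested, 100% after rounding, were called lower), from -3.82 for Dppa4 (adjusted p 1.27e-61) to -6.69 for Utf1 (adjusted p 1.48e-182), each with an SE of 0.23. The median was -4.99 for the members and -5.22 for all genes. These p-values are very small because limma pooled the spread over all genes here, and with 2 libraries against 2 an exact permutation test of a single gene cannot go below 0.333. Of the bodies 6 had enough reads for the test. Pou5f1, Sall4, Lin28a, Dppa2 and Dppa4 were called lower (99.9% of genes), from -2.24 (SE 0.26) for Dppa2 to -5.60 (SE 0.34) for Lin28a. The Pou5f1 body held 11 reads after DMSO and 11 after the inhibitor, and the Dppa2 body 20 and 17. Their falls thus rest mainly on the factors per read given below. Per library total, the bodies of Pou5f1, Sall4, Dppa2 and Dppa4 were called higher (2.65, 1.88, 2.37 and 2.27), and Lin28a (0.30) was not called. Utf1 reached the minimum through its DMSO libraries alone (106 reads, against 3 after the inhibitor), so its -7.53 is given as a value only. Sox2, with 5 reads after DMSO and 3 after the inhibitor, had too few reads for the test. At the TSS Sall4, Lin28a and Utf1 reached the minimum of 10 reads through their DMSO libraries alone (17, 154 and 169 reads, against 6, 8 and 6 after the inhibitor). Their differences of -4.04, -7.09 and -7.19 are therefore given as values only, beside the 99.3% of 14090 genes tested that were called lower, or 15440 of 17277 without a filter on reads. Pou5f1, Sox2, Dppa2 and Dppa4 had 2, 4, 4 and 6 reads at the TSS after DMSO and did not reach the minimum number of reads for the test. Their scaled reads per window at the TSS were 5.94 and 3.37 after DMSO against 0.121 and 0.1485 after the inhibitor for Sox2, and 5.94 and 6.74 against 0 and 0.0495 for Dppa4. For Dppa2 they were 2.97 and 5.055 against 0 in both inhibitor libraries, where 3 reads would give 0.363 and 0.1485. Pou5f1 had 0 and 3.37 after DMSO and 0.242 and 0.1485 after the inhibitor. A read counts as 5.943 and 3.37 in the DMSO libraries and as 0.242 and 0.099 in the inhibitor libraries. At so few reads the distance between the arms rests on these factors, with 4 reads in each arm at Sox2. Because nearly every gene was called, these falls are not particular to the members. They also rest on the authors' scaling: per library total, Pou5f1, Sall4, Dppa2 and Dppa4 turned to a higher level in the flanks (1.68, 0.85, 0.93 and 1.10), with 5562 of all genes called higher and 2123 lower, and Sox2 (-0.12), Lin28a (0.16) and Utf1 (-0.38) did not pass the test. Centred on the median gene, 9333 flanks were called higher and 9348 lower.

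**Figure D3:**
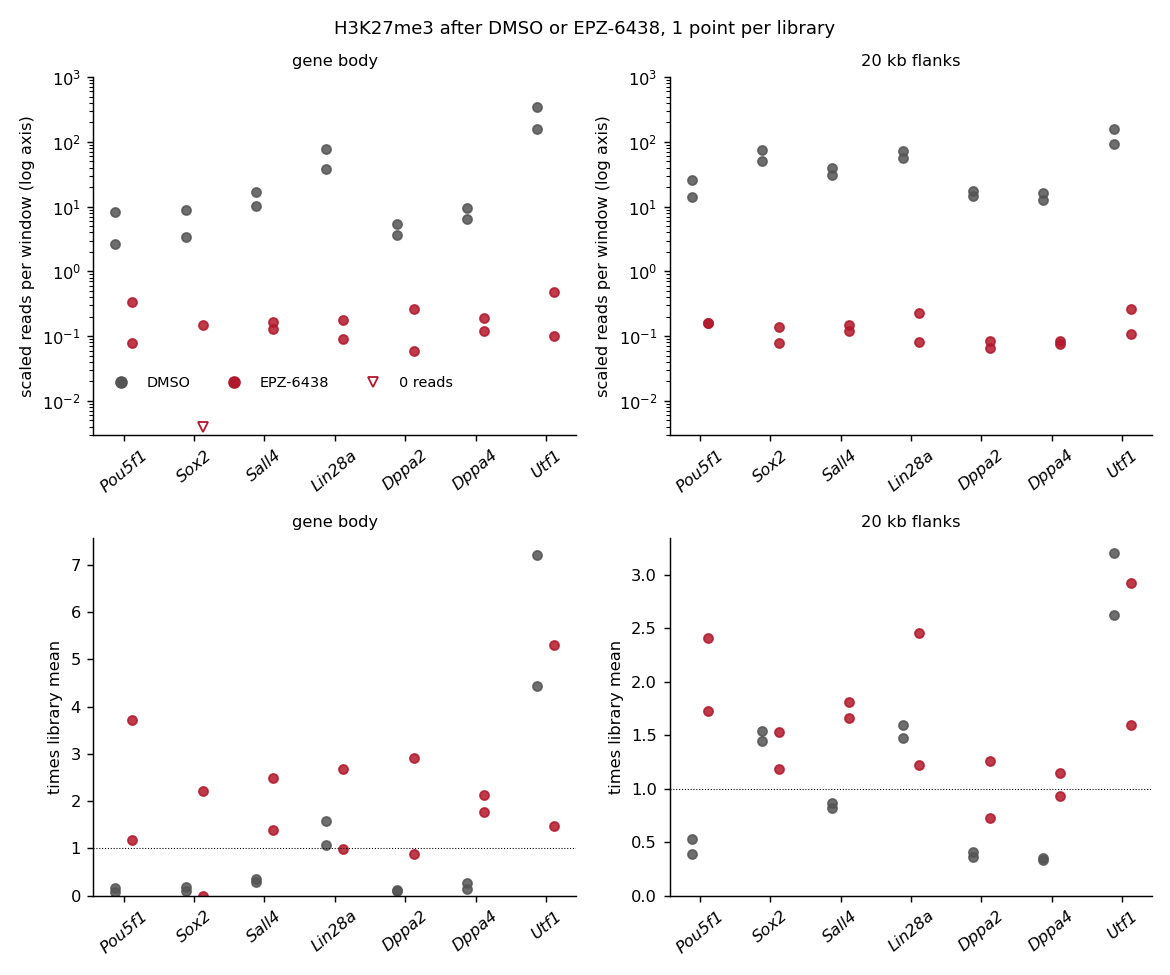
H3K27me3 over the bodies (left) and 20 kb flanks (right) of 7 genes after DMSO (grey) or EPZ-6438 (red), 1 point per library, as spike-in scaled reads per window on a log axis (top; open triangles are 0 reads, placed at the foot of the axis) and as times the mean of the same library (bottom). The spike-in scaled flank values lie at 12.6 or above after DMSO and at 0.266 or below after the inhibitor. In the flanks, the range of the genes' mean relative values is narrower after the inhibitor.

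In the flanks, the range of the members' means over 2 libraries was narrower after the inhibitor. The inhibitor libraries differed from each other, with an SD of 0.94 for Utf1 against 0.41 after DMSO. Relative to the library mean, the flank means after DMSO ran from 0.343 times (Dppa4) to 2.92 times (Utf1), and after the inhibitor from 0.995 (Dppa2) to 2.26 times (Utf1). Pou5f1 went from 0.528 and 0.392 times to 1.73 and 2.41 times, and Sall4 from 0.824 and 0.866 to 1.66 and 1.82 times. For these 2 genes, Dppa2 and Dppa4, both inhibitor libraries were above both DMSO libraries (4 of 7 members; 44.2% of genes tested), and for Sox2, Lin28a and Utf1 the arms overlapped. No member was lower in both libraries (0 of 7; 28.2% of genes). Over bodies the same 4 were higher (4 of the 6 with enough reads; 49.7% of genes). Taken by side, both inhibitor libraries were below both DMSO libraries upstream of Sox2 (means of 2.21 and then 1.63 times) and Lin28a (2.77 and 1.75 times), which is 2 of 7 members against 29.2% of genes, and above them upstream of Pou5f1, Sall4, Dppa2 and Dppa4 (4 of 7; 41.9%). Downstream they were below at Utf1 (2.53 and 1.91 times; 1 of 7, 27.2% of genes) and above at Pou5f1, Sox2, Sall4, Lin28a and Dppa4 (5 of 7; 44.8%). At the TSS the members' means ran from 0.0472 (Pou5f1) to 4.60 times (Utf1) after DMSO and from 0 (Dppa2) to 3.69 times (Utf1) after the inhibitor. Single inhibitor libraries ran from 0 (Dppa2) to 6.64 times (Utf1) in replicate 1 and from 0 (Dppa2) to 4.45 times (Lin28a) in replicate 2. The highest values in the DMSO libraries were 5.37 and 3.96 times. The starts held 0 to 8 reads over the 2 inhibitor libraries, too few to compare the ranges. At the Sall4 start both inhibitor libraries were above both DMSO libraries, as for 33.6% of genes tested, and at Lin28a and Utf1 the arms overlapped. These 3 starts had 6 to 8 reads after the inhibitor and reached the minimum through DMSO alone, so their values are descriptions. The inhibitor libraries held 0.992 and 1.78 M window reads against 21.6 and 27.9 M after DMSO, and the part of this depth in the relative values was not tested.

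H3K36me2 showed no called change at any member after the inhibitor, in the TSS (0 of 7; 0.443% of 16713 genes tested were called by limma), the body (0 of 7; 0.352%) or the flanks (0 of 7; 0%). In the flanks limma called 0 of 21372 genes, where 114 had an unadjusted p under 0.05. From whole reads, limma-voom called 1, and limma with median centring called 1738, of which 1728 were higher and none was a member. At the Pou5f1 TSS the scaled reads per window were 662 and 378 after DMSO and 700 and 518 after EPZ-6438, a log2 difference of 0.27 (SE 0.59, 95% interval -0.88 to 1.42). At the Sox2 TSS they were 424 and 295 against 443 and 243 (-0.11, interval -1.26 to 1.04). At the Lin28a TSS they were 571 and 445 against 467 and 248, the lowest difference of the members at -0.56 (-1.72 to 0.59). The arms overlapped for Pou5f1, Sox2 and Lin28a, and replicate 1 was above replicate 2 in each. The same held for the library means, at 323 and 213 after DMSO and 404 and 227 after the inhibitor. The intervals at the starts of Dppa2, Dppa4, Sall4 and Utf1 also reached beyond 1 log2 unit, so changes of 2-fold in single genes were not resolved on this scale. In the bodies the differences ran from -0.13 to 0.25 (SE 0.52) and in the flanks from -0.08 to 0.06 (SE 0.51). The SE was the same for every member within a region, because limma pooled the spread over all genes here too. These intervals therefore do not measure the spread of a single gene.

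At the starts and in the flanks the replicates of all 7 members were closer relative to the library mean, which did not hold over the bodies of several, such as Dppa2, and Lin28a stood out among the members at its TSS. There H3K36me2 was 1.76 and 2.08 times the library mean after DMSO and 1.15 and 1.10 times after the inhibitor, a change of -0.77 on the log2 scale with -0.93 and -0.61 as the extremes over pairs of libraries. Sox2 went from 1.31 and 1.38 to 1.10 and 1.07 times and Utf1 from 1.45 and 1.77 to 1.18 and 1.36 times. In these 3 members both inhibitor libraries were below both DMSO libraries (3 of 7; 38.3% of 16713 genes), and in 0 of 7 above (11.5%). Pou5f1, with 2.05 and 1.77 against 1.73 and 2.29 times, Sall4, Dppa2 and Dppa4 overlapped. Over bodies, Sox2 and Lin28a were lower (2 of 7; 36.5% of genes), and in the flanks Sox2, Sall4, Lin28a and Utf1 (4 of 7; 46.4%), with Sall4 going from 2.97 and 2.99 to 2.46 and 2.48 times. On library totals limma called 0 of 16713 genes at the TSS, with 2540 at an unadjusted p under 0.05, so these relative differences are descriptions. The Lin28a values rest on 193 window reads after DMSO and 144 after the inhibitor.

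**Figure D4:**
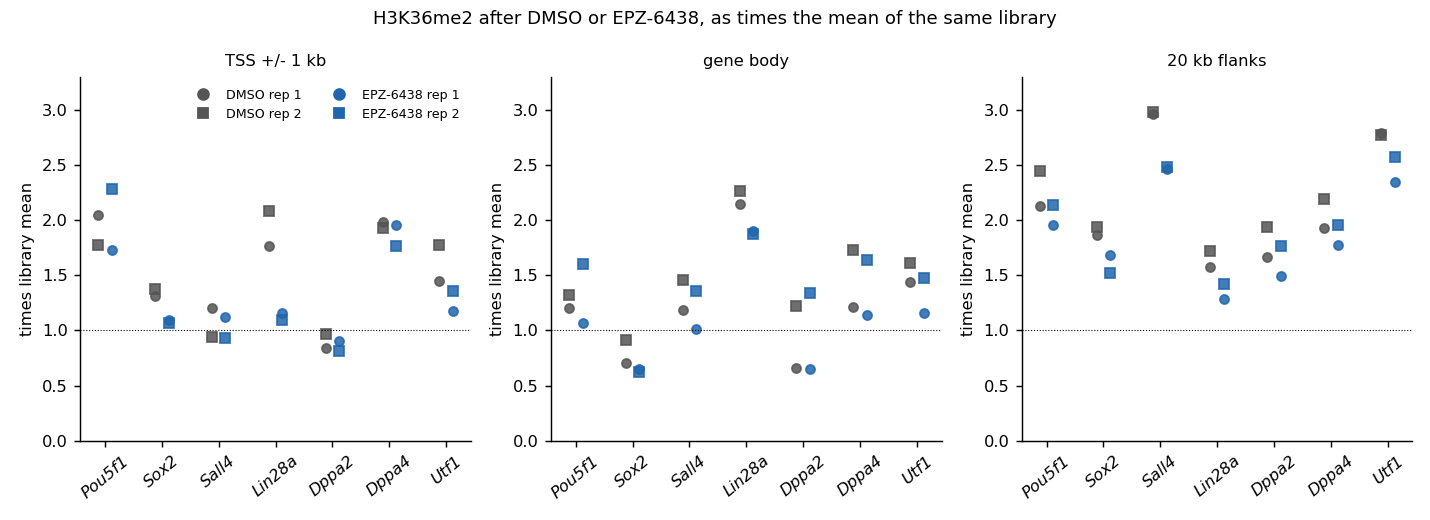
H3K36me2 at the TSS, over the body and in the 20 kb flanks of 7 genes after DMSO (grey) or EPZ-6438 (blue), as times the mean of the same library, with circles for replicate 1 and squares for replicate 2. At the Lin28a TSS the inhibitor libraries lie at 1.15 and 1.10 times, below the DMSO libraries at 1.76 and 2.08 times, and the Pou5f1 TSS values overlap.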

How the data were processed

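The samples were 18 ChIP-seq libraries of E14 cells in 9 groups of 2, assigned from their labels. The authors deposited 1 track of log2 values per library, whose windows are 1 kb long and start every 500 bp. The submitters' processing notes name Trim Galore 0.4.2, Bowtie2 2.2.6.2, SICER and the builds mm10 and dm3, with no role given. Undoing the log2(1 + x) form gave whole reads times 1 factor per library in 100% of windows (tolerance 0.02). The factor of untreated libraries gave reads per 1000000 (RPM), and that of quantitative libraries, from 0.099 to 11.115, is treated here as the spike-in scaling. The authors' deposited peak lists, 1 per mark with a score that was not used, served for overlap only (at least 500 bp of the TSS window, at least 50% of the body). A peak list of H3K36me3 and an input library were not used here.

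Non-overlapping windows were averaged per region. Orientation came from the RefSeq promoter table for 17274 genes and from general knowledge for Sall4, Dppa2 and Dppa4, for which the other end of the gene was added as an alternative after the data were seen. Inhibitor and DMSO were compared with limma 3.58.1 (R 4.3.3) on log2(level + 1) for genes with at least 10 window reads over 4 libraries. Each region was compared with its flanks within untreated libraries on log2(RPM + 0.1), with at least 20 window reads over region and flanks together. The p-values were adjusted over all genes tested by Benjamini-Hochberg, with calls at an adjusted p under 0.05. Reads at window edges count in each window they touch, so counting errors are understated. The scripts were tested on simulated data. The members are named whatever their values, together with the 2 genes nearest to each and the extremes of the lists. The members and lists were chosen with earlier results of these data known. Alternatives are given in the closing section.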

Additional observations from a re-analysis of the deposited data

How the results depend on the processing

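Each count of genes called and each member's value was recomputed under other processing choices, 1 at a time. Of 443 values of members after the inhibitor, 363 kept their direction and side of the threshold, 75 turned direction and 5 were no longer called. Of 420 in untreated cells, 7 turned direction, 10 were no longer called and 13 were newly called. The other 390 include every value that leaves out 1 of the 2 untreated libraries. Those values have no test and were counted as kept, so the 390 overstate the stability. On library totals in place of the authors' spike-in scale, H3K27me3 calls went from 13986 to 0 at the TSS (4743 at an unadjusted p under 0.05), 19927 to 8932 in bodies (6887 higher, 2045 lower) and 21298 to 7685 in flanks (5562 higher, 2123 lower), where all had been lower, and members turned to 2.09 (Sall4 TSS), 2.65, 1.88, 0.30, 2.37 and 2.27 (Pou5f1, Sall4, Lin28a, Dppa2 and Dppa4 bodies) and 1.68, 0.85, 0.16, 0.93 and 1.10 (their flanks). Centring on the median gene gave 1.32 (Sall4 TSS), 2.59, 1.25, 2.64 and 1.94 (Pou5f1, Sall4, Dppa2 and Dppa4 bodies) and 1.11, 0.23, 1.24 and 1.40 (their flanks), because the median gene fell by 4.88 to 5.31. The median over body windows gave 11650 H3K27me3 calls, of 11652 genes that could then be tested. Leaving out a library gave 14013 to 14036, 19906 to 19949 and 21258 to 21299 calls at the TSS, body and flanks, of which 5 and 10 at the TSS were higher without DMSO replicates 1 and 2, against 0 with all libraries.

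H3K36me2 calls were few and unstable. From 74 at the TSS they moved to 0 on library totals, 0 without a filter, 0 with limma-voom, 4 with median centring and 29 with 2 kb on either side of the start, and from 74 in bodies to 0, 0, 1 and 1 in the first 4 settings. In flanks 0 became 1738 with median centring, 2 with a pseudocount of 0.1 and 1 with limma-voom. With the replicate block the counts were 6, 1666 and 4100, of which 6, 1621 and 4059 were higher after the inhibitor. In the main fit 72 of the 74 calls at the TSS and 71 of the 74 in bodies were higher. No member was called in any of these settings. Same-numbered libraries deviated together at 0.149 to 0.628 for H3K36me2 and 0.0205 to 0.136 for H3K27me3, over 2 pairs, which do not show that the numbers pair the samples. Leaving out a library gave 21 to 113, 16 to 141 and 0 to 0 calls, with each lone library assumed to vary like the rest; without DMSO replicate 2 the TSS and body counts were 21 and 16, and without EPZ-6438 replicate 2 they were 113 and 141. Members turned sign around 0: on library totals -0.047, -0.056 and -0.065 (Sall4, Dppa2, Dppa4 TSS), -0.13 and -0.070 (Sall4, Dppa4 bodies) and -0.14, -0.13, -0.13 and -0.16 (Pou5f1, Dppa2, Dppa4, Utf1 flanks); with median centring -0.058 (Sall4 body) and -0.040, -0.027, -0.027 and -0.060 (the same flanks); with 50 kb flanks -0.0063 (Pou5f1); with the body median -0.0061 and -0.00088 (Sall4, Dppa4); at the other gene end, added after the data were seen, -0.078 and -0.13 (Sall4, Dppa4); with windows 500 bp later -0.016 and -0.0019 (Sall4, Dppa2 TSS) and 0.011 (Sox2 flank). Leaving out 1 library, TSS values ran from -0.14 to 0.67 (Pou5f1), -0.54 to 0.32 (Sox2), -0.41 to 0.70 (Sall4), -0.37 to 0.63 (Dppa2), -0.36 to 0.62 (Dppa4) and -0.45 to 0.18 (Utf1). Body values ran from -0.58 to 0.32 (Sox2), -0.16 to 0.25 (Sall4), -0.45 to 0.41 (Lin28a), -0.037 to 0.28 (Dppa4) and -0.26 to 0.22 (Utf1). Flank values ran from -0.31 to 0.40 (Pou5f1), -0.53 to 0.45 (Sox2), -0.47 to 0.35 (Sall4), -0.43 to 0.27 (Lin28a), -0.24 to 0.36 (Dppa2), -0.28 to 0.40 (Dppa4) and -0.32 to 0.38 (Utf1).

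In untreated cells, 50 kb flanks turned H3K27me3 at the Utf1 TSS to -0.29, H3K36me2 at Lin28a to -0.10 and H3K36me3 at Pou5f1 and Sox2 to 0.19 and 0.28, and windows 500 bp later turned H3K27me3 at Utf1 to -0.11 and H3K36me3 at Pou5f1 and Utf1 to 0.020 and -0.15. Further calls gained were H3K27me1 at the Sox2 TSS (-1.01) and H3K27me3 over the Lin28a and Dppa4 bodies (-0.60 and -0.73) with 50 kb flanks, and H3K27me2 over the Utf1 body (-0.54) with the later windows. Without a filter, H3K27me1 at the TSS gave 1864 calls in place of 5161, over more genes tested. Causes were otherwise not tested. Leaving out 1 of 2 untreated libraries leaves values with no test, so no count of genes called was made. Depth limits H3K27me3 after the inhibitor most, where member starts held 0 to 8 reads over 2 libraries.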
